A study of Saccharomyces cerevisiae with 177 samples.

Results

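The genes described here code for proteins of the yeast mitochondrial ribosome. They were chosen by name alone: every gene whose standard Saccharomyces cerevisiae name starts with MRPL, MRPS or RSM followed by a digit was taken, which gave 54 of the 5794 genes in each deposited table. By subunit, 34 belong to the large and 20 to the small subunit. By descent, 33 were classed as having a counterpart in the bacterial ribosome and 19 as specific to mitochondria. RSM22 and RSM28 were put in neither class, although the annotation also names RSM28 mS46, a form of name used for proteins specific to mitochondria. The members lie on 14 chromosomes, 1 has an intron, and 31 share their upstream region with a gene read in the opposite direction.

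The mitochondrial ribosome makes the few respiratory chain subunits that mitochondrial DNA still encodes, while its own proteins are nearly all made from nuclear genes, in the cytoplasm, and imported. Its nuclear genes are therefore read by RNA polymerase II, like those of the cytoplasmic ribosome, although both ribosomes serve different compartments. In yeast the RNA-binding protein Puf3 is known to bind a short site in the 3′ end of mRNAs of mitochondrial biogenesis and to control their decay and translation.

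The study measured RNA made in a 5 min window of labelling with 4-thioU in cells grown at 30 °C, in 177 libraries that fall into 60 groups. It asked how far Mediator, the complex that links activators to RNA polymerase II, is needed for transcription. In 22 degron strains a Mediator subunit or another factor was destroyed with 3-indoleacetic acid (3IAA) and compared with DMSO. A further 6 mutants were compared with a control strain, and 15 libraries crossed depletion of Med15, a subunit of the Mediator tail, with the stresses labelled HS and SM.

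All strains were MATα and carried the markers Dade2::hisG, leu2D0, lys2D0 and met15D0, together with trp1D63 and ura3D0, and his3D200 (given as D200 for med15del). All but med15del, med16del and WT also carried pGPD1-OSTIR::HIS3, the plant receptor that 3IAA needs, driven by a strong constitutive promoter. Of the strains used most below, Med14 was SHY1054 with MED14-3xV5 IAA7::KanMX, Med15 was SHY1055 with MED15-3xV5 IAA7::KanMX, and CCL1 was SHY1057 with CCL1-3xV5 IAA7::KanMX, each also with RPB3-3xFlag::NATMX. Med17 was SHY1129 with the same RPB3 tag and MED17-3xV5 IAA7 mini degron::KanMX. Med15_Taf1 was SHY1529 with MED15-3xV5 IAA7::KanMX and TAF1-3xV5-IAA7::LEU2. The stress libraries, labelled Med15_DMSO_no_stress, Med15_DMSO_HS, Med15_IAA_HS, Med15_DMSO_SM and Med15_IAA_SM, all came from SHY1055. The med15del strain SHY825 carried Dgal11::HPH and the med16del strain SHY331 carried Dsin4::TRP1, and both were compared with WT, BY4705. In Med7C, Med7N, TID and Med14C parts of the subunit were made from plasmids, and Med7_EWE3, Med21_EWE4, Med6_delH1 and med7N_del and their controls carried the gene on a plasmid over a chromosomal deletion. For the Med31 libraries (SHY1422) title and genotype differ, since the genotype gives MED19 as the tagged gene. Of the other strains, Med1 (SHY1215), Med5 (SHY1053), Med7 (SHY1060), Med10 (SHY1061), Med12 (SHY1085) and Med16 (SHY1056) carried the RPB3 tag and a 3xV5 IAA7 degron on the gene of that name, and CDK8 (SHY1073) on SRB10. Med1_5 (SHY1424) and Med2_15 (SHY1141) carried the RPB3 tag and a degron on both genes. Without the RPB3 tag, Med9 (SHY1435) had a mini degron, Med19 (SHY1421) a degron, and Med15_Med16 (SHY1460) one of each. The plasmid strains were SHY1428 (Med7C), SHY1436 (Med7N), SHY1208 (TID) and SHY1296 (Med14C). The mutants SHY1427 (med7N_del) and SHY1445 (Med7_EWE3) were compared with SHY1444, SHY1443 (Med21_EWE4) with SHY1442, and SHY1455 (Med6_delH1, which lacks part of a helix of Med6) with SHY1454. The deleted genes checked the labels: signal of GAL11, the MED15 gene, was 1.05, 0.7 and 0.66 in med15del and 80.9, 78.9 and 83.2 in WT, and that of SIN4, the MED16 gene, was 0.13, 0.17 and 0.13 in med16del and 24.6, 23.4 and 25.2 in WT. Degrons act on the protein, so RNA does not check them. The labels do not say that the 2 or 3 libraries of a group were separate cultures, so p-values measure the spread between these libraries.

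Almost every member carried the letters of a Puf3 site just after its stop codon. The letters TGTANATA were searched on the coding strand in the 200 bases after the stop codon of every gene in the RefSeq annotation of build R64 (sacCer3). They were found in 53 of the 54 members (98.1%) and in 841 of 5792 genes (14.5%). On the opposite strand of the same windows the shares were 18.5% of members and 13.2% of all genes. The sites of 8 members whose levels are described below are printed 5′ to 3′ with these letters in capitals, since nearly all members share these letters. Coordinates are those of sacCer3.

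MRPL17, chrXIV:171334-171363, minus strand: cgtcaatcacaTGTAAATAtcattaaatga
RSM19, chrXIV:695024-695051, minus strand: gggatctagTGTATATAgatttctagat
MRPS12, chrXIV:694269-694298, minus strand: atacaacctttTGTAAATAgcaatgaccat
MRPS18, chrXIV:58860-58889, plus strand: atatatattcgTGTAAATAattcgattttt
MRPS17, chrXIII:636217-636246, minus strand: gcactacactcTGTAAATAtatacaactac
MRPL8, chrX:315714-315743, minus strand: gtgtattccctTGTAAATAtatagatgaca
MRPL1, chrIV:682668-682697, minus strand: acttttttaatTGTATATAtatatatactg
RSM24, chrIV:813142-813171, minus strand: aacggccccccTGTATATAttatgtatttg

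Other genes of mitochondrial translation often had the same letters. They were found in 24 of the 24 other mitoribosomal protein genes (a list of names outside the rule, such as IMG1 and NAM9), in 22 of 25 genes of mitochondrial translation factors and tRNA synthetases (88%) and in 9 of 11 genes of mitoribosome assembly (81.8%). In 17 genes of the mitochondrial gene expression core, such as RPO41, the mitochondrial RNA polymerase, the share was 58.8%, and in 54 respiratory chain and ATP synthase genes it was 33.3%. Among 138 genes of the cytoplasmic ribosome the share was 4.35%. RSM22, a methyltransferase-like protein counted with the small subunit, was the only member without a match in the window.

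Before the start codon only a TATA element and CCAAT were searched for, and neither was shared by nearly all members. A TATA element, taken as any of TATAAAAA, TATAAAAG, TATAAATA, TATAAATG, TATATAAA, TATATAAG, TATATATA and TATATATG on either strand, with overlapping matches counted once per gene, was present in the 250 bases before the start codon of 14 members (25.9%) and of 36.2% of all genes. It was present in 12 of 34 members of the large subunit and in 2 of 20 of the small subunit. CCAAT, also on either strand, was present in 29.6% of members, 35.7% of all genes and 70.4% of respiratory chain and ATP synthase genes.

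**Figure D1:**
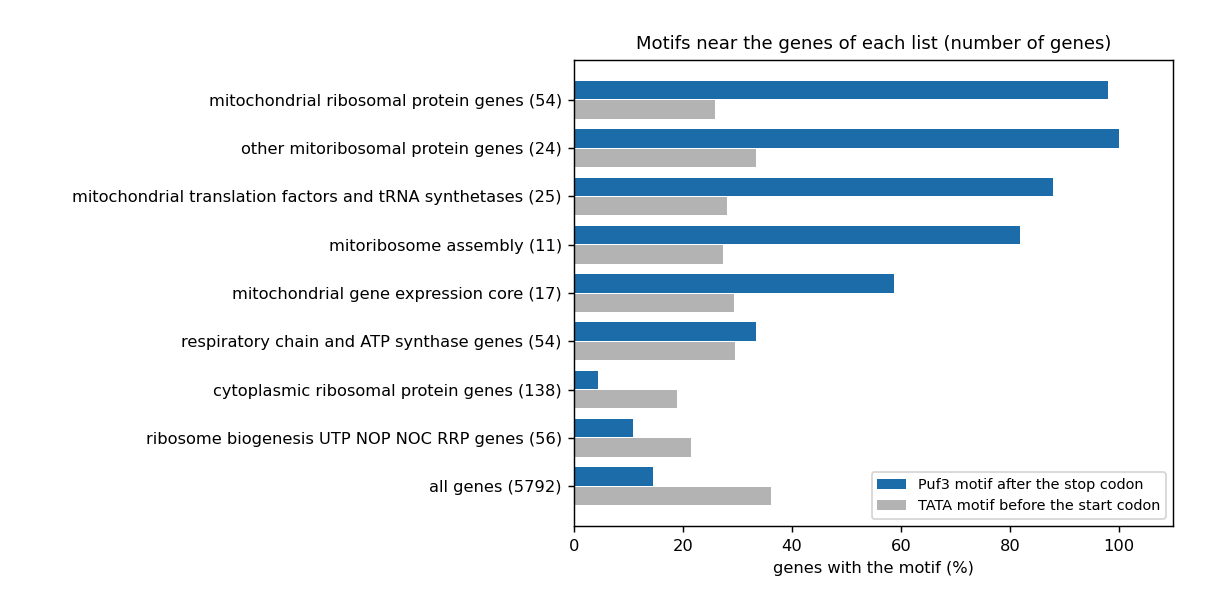
Percentage of genes in each list (number of genes in brackets) with the letters TGTANATA in the 200 bases after the stop codon (blue) and with a TATA element in the 250 bases before the start codon (grey). The mitochondrial ribosomal protein genes stand at 98.1% and 25.9%, all genes at 14.5% and 36.2%.

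New RNA of the members was above that of the typical gene in unstressed cells. Per kilobase of coding length, in TMM-scaled CPM (counts scaled to a common library total) of the 3 Med15_DMSO_no_stress libraries, the median over the 54 members was 184, against 85.3 over 5547 genes with enough counts and 382 over the cytoplasmic ribosomal protein genes. The highest was MRPS16, a small-subunit protein with a bacterial counterpart, at 603, 652 and 568, a mean of 608 ± 42.2 (SD, n = 3 libraries). The lowest was MRPL19 at 50.2, 53.9 and 48.2, a mean of 50.8 ± 2.88, which is 12-fold below MRPS16 on this scale per length. The libraries of these genes did not overlap. MRPL19 overlaps YNL184C, so its reads may be split between both. Of the members, 48 lay above the median of all genes. The members took between 0.4% and 0.835% of the deposited total of a library.

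Depth was 4384651 to 10032201 counts in the 15 stress libraries. The other 162 libraries were deposited as a scaled value per gene under the header signal. In 106 of them whole reads could be recovered, between 2119024 and 10711585 per library, and in the other 56 the depth is unknown. No member was at 0 in any library. Signal was tested with limma on log2(signal + 1), on the deposited scale, leaving out genes whose mean signal was under 10. Counts were tested with edgeR's quasi-likelihood test. A gene is called changed at a Benjamini-Hochberg adjusted p under 0.05 over all genes tested. The value after ± beside a log2 change is its standard error. Signal that falls in all genes alike counts as a fall on the deposited scale, so the median over all tested genes (the typical gene) is given beside the members.

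With loss of Med14, of Med17, of Ccl1, or of Med15 and Taf1 together, new RNA of every tested member fell, by about as much as that of the typical gene. With loss of Med14, the scaffold of Mediator, 36 of 36 tested members were called lower against 99.7% of all tested genes, with a median log2 change of −1.80 for members and −1.96 for all genes. With loss of Med17, of the Mediator head, 49 of 49 were called lower (99.7% of all genes; medians −1.55 and −1.66). With loss of Ccl1, the cyclin H of TFIIH, 49 of 49 were called lower (99.8%; medians −2.21 and −2.18). With loss of Med15 together with Taf1, a subunit of TFIID, 53 of 53 were called lower (99.9%; medians −2.26 and −2.50). The filter on low signal left out up to 18 members, and without it all 54 were called lower in each of these 4 comparisons.

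Every tested member also fell in 10 other comparisons, but not in those of Med7 and Med9, whose subunits lie in the middle of Mediator. With loss of Med7 0 of 47 were called (0.199% of all genes were higher and 9.01% lower). With loss of Med9 26 of 50 were called higher (37.4% of all genes) and 0 lower (9.44%). Both are described further on. All tested members were called lower with loss of Med10 (51 members, 99.8% of all genes), Med14C (50 members, 99.9%), Med19 (52 members, 97.7%), Med31 (53 members, 97.3%), Med7N (50 members, 99.2%) and Med7C (51 members, 95.2%). In the mutants med7N_del (50 members, 99.0%), Med7_EWE3 (51 members, 97.0%), Med21_EWE4 (51 members, 98.3%) and Med6_delH1 (53 members, 99.8%) all tested members were called lower too. Med7_EWE3, Med21_EWE4 and Med21_WT had 2 libraries each. Median log2 changes of the members in these 10 comparisons ran from −2.05 (Med10) to −0.42 (Med7C), where those of all genes were −2.13 and −0.50.

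Measured against the typical gene, the members stayed close together. Over the 28 comparisons of signal, the median of the members lay within 0.1 of the median of all tested genes on the log2 scale in 25. The widest gap was 0.24, and the members' median was the higher one in 20 of the 28. Single members were also close: of 1384 pairs of a tested member and a comparison, 98.3% lay within 0.5 of the median of all genes, where 88.7% of the 121921 pairs over all genes did. Without the filter on low signal these shares were 98.1% of 1512 pairs and 84.0%. For the cytoplasmic ribosomal protein genes the share was 93.0%, for the respiratory chain and ATP synthase genes 90.8%, and for the other mitoribosomal protein genes 97.5%. These shares are a description, since genes of a comparison share its libraries and low genes vary more.

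**Figure D2:**
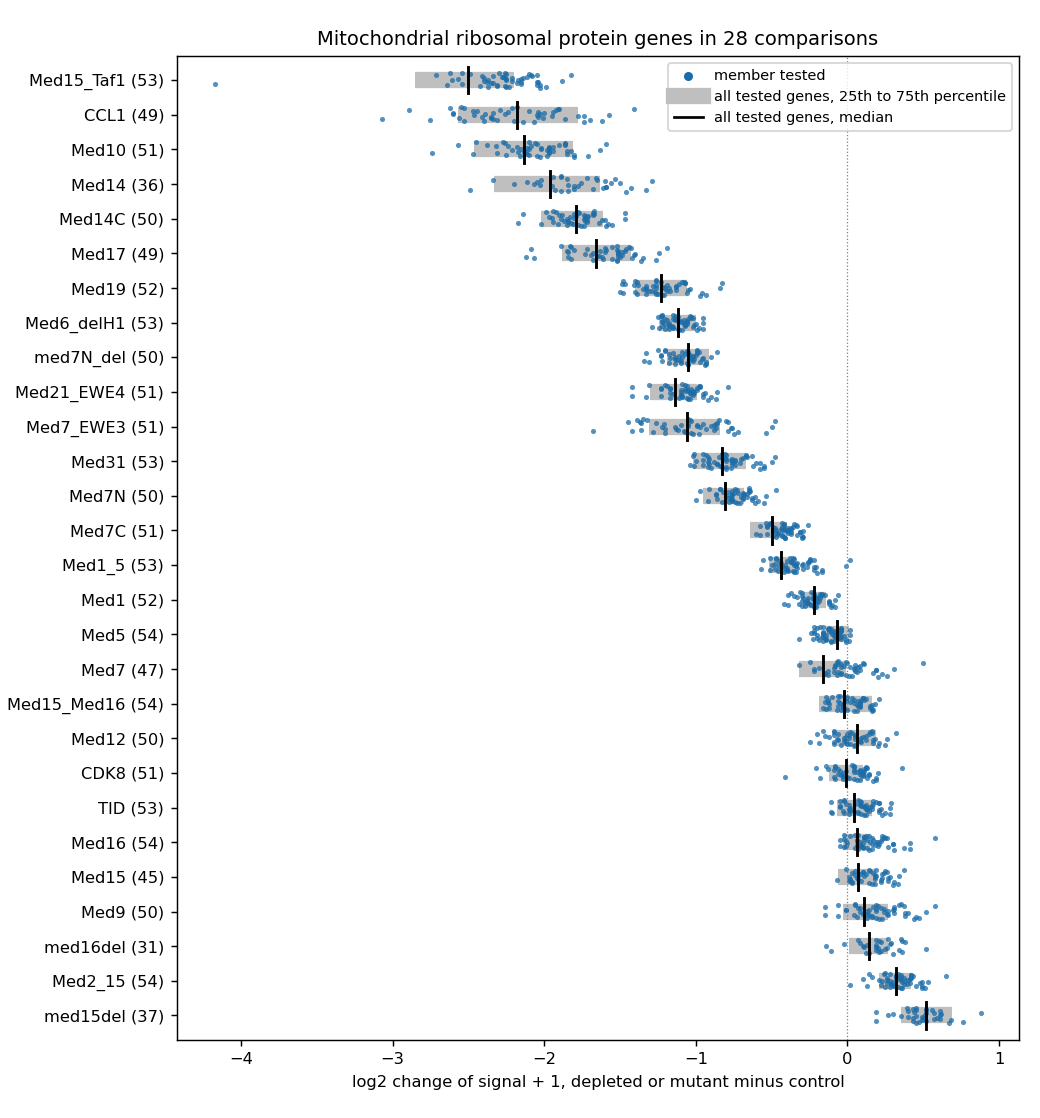
Log2 change of signal plus 1 (x axis) in 28 comparisons of depleted or mutant cells with their control, in order of the members' median. Points are tested mitochondrial ribosomal protein genes (number in brackets), grey bars span the 25th to the 75th percentile of all tested genes and black ticks mark their median. The points follow the bars, and MRPL17 in Med15_Taf1 stands alone at −4.17.

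TMM scaling sets the change of the typical gene to about 0, and on that scale members were called in both directions. For Med14 the scaled calls were 8 higher and 3 lower (31.9% and 26.1% of all genes), for Med17 9 higher and 5 lower (30.3% and 24.7%), and for CCL1 15 higher and 17 lower (38.7% and 35.9%). For Med15_Taf1 they were mostly higher, 35 higher and 3 lower (39.3% and 35.6%), with a median of 0.24 for members and 0.03 for all genes. Directions below are on the deposited scale for signal. The closing paragraphs on processing list called values whose sign turns with TMM scaling. That list covers only the largest rises and falls of each main comparison and 8 genes followed in all of them. The signs of RSM24 with loss of Med14, MRPS17 with loss of Med17 and NRD1 with loss of Ccl1 turn too, as given where they are named. For MRPL3 with loss of Med10 and of Med14C the TMM value is not given.

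MRPL17 (chrXIV:171441-172286, minus strand), which codes for a large-subunit protein specific to mitochondria (mL46), fell furthest of all members with loss of Med15 and Taf1. Its signal was 59.7, 59.4 and 56.5 in the DMSO libraries and 2.87, 1.89 and 2.24 in the 3IAA libraries, so the groups did not overlap. The log2 change was −4.17 ± 0.10, an 18.0-fold fall of signal + 1 (limma adjusted p = 2.06e-37), and −1.92 with TMM scaling (adjusted p = 1.86e-09). The added 1 makes this fold smaller than that of the mean signals themselves, 58.5 in DMSO and 2.33 in 3IAA. It ranked 32 from the lowest of the 4688 genes tested. The next members were MRPL39, a large-subunit protein with a bacterial counterpart (bL33), at −2.71 ± 0.10, and RSM19 of the small subunit (uS19) at −2.64 ± 0.11. MRPL39 went from 43.2, 41.3 and 43.7 in DMSO to 5.95, 4.98 and 6.13 in 3IAA. RSM19 went from 21.0, 19.8 and 20.6 to 2.84, 2.26 and 2.24. In both genes every 3IAA library was below every DMSO library, and the fall was near that of the typical gene (−2.50).

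MRPL17 was also among the members that fell most with loss of Med14 and of Med17. With loss of Med14 its signal went from 33.1, 29.9 and 36.2 to 6.02, 4.51 and 6.77 (log2 change −2.34 ± 0.17, adjusted p = 5.14e-15). With loss of Med17 it went from 33.8, 30.2 and 26.5 to 6.46, 6.10 and 5.93 (−2.12 ± 0.10, adjusted p = 1.38e-17). The groups did not overlap in either. With loss of Med15 alone it was 31.0, 23.0 and 18.4 in DMSO and 27.9, 29.1 and 23.8 in 3IAA, and these groups overlapped (0.18 ± 0.20, adjusted p = 0.971).

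NRD1 is the gene just upstream of MRPL17 on the same strand, with 302 bases between the coding regions. With loss of Med14, of Med17, or of Med15 and Taf1 it moved the other way. Its protein binds nascent RNA and ends transcription of short noncoding RNAs, and it was looked up because it is the neighbour of MRPL17. With loss of Med15 and Taf1 its signal went from 274, 236 and 268 in DMSO to 1660, 1420 and 1470 in 3IAA (log2 change 2.54 ± 0.09, adjusted p = 1.4e-31), the highest change of the 4688 genes tested. With loss of Med14 it was 1.59 ± 0.18 (adjusted p = 1.84e-10), with loss of Med17 1.23 ± 0.11 (adjusted p = 2.11e-11) and with loss of Med15 0.11 ± 0.20 (adjusted p = 0.997). Across the 26 comparisons of signal that tested both genes, NRD1 was called higher in 11, and in 9 of these MRPL17 lay below the median of all genes. In the other 15 comparisons MRPL17 lay below it in 8. These calls of NRD1 are on the deposited scale. With both genes set against the median of all genes, NRD1 lay above and MRPL17 below in 15 of the 26. Whatever NRD1 did, MRPL17 lay below in 17. Both genes were called lower in Med21_EWE4 (log2 change −1.08 for NRD1 and −1.42 for MRPL17), Med7_EWE3 (−0.37 and −1.36) and med7N_del (−0.26 and −1.2). Whether reads or RNA of NRD1 play a part in the level of MRPL17 was not tested. With loss of Ccl1 NRD1 fell (−0.35 ± 0.12, adjusted p = 0.013, and 1.90 with TMM scaling), and MRPL17 lay above the typical gene (−1.78 against −2.18).

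**Figure D3:**
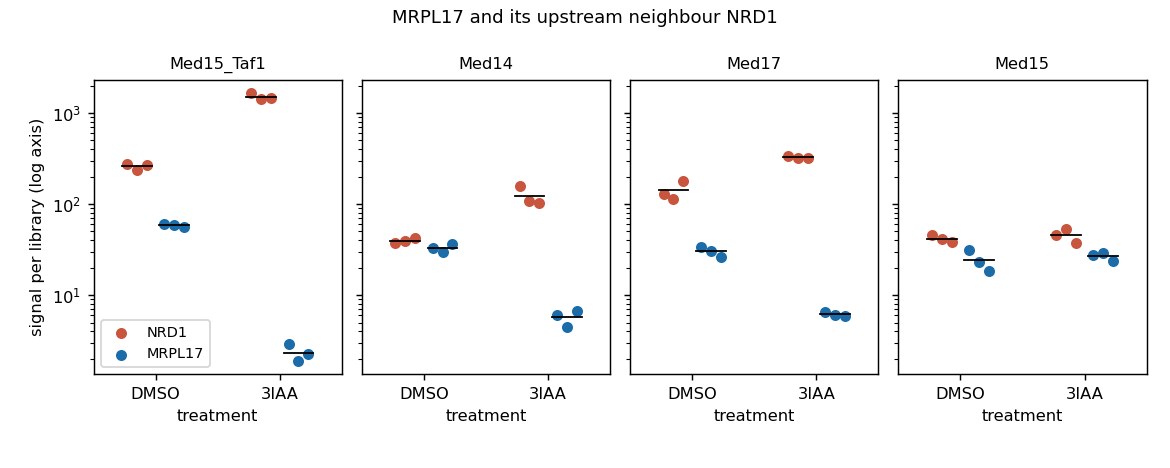
Signal in each library (log axis) of MRPL17 (blue) and of NRD1 (red), in DMSO and 3IAA, for 4 degron strains; black lines are means of 3 libraries. In Med15_Taf1, Med14 and Med17 every 3IAA library has more NRD1 and less MRPL17 than every DMSO library, and in Med15 the groups overlap for both.

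Other members led the falls in single depletions. With loss of Med14 the lowest member was MRPL1, which codes for a protein of the L1 stalk (uL1), with signal 34.0, 28.7 and 38.2 in DMSO and 6.75, 4.57 and 4.28 in 3IAA (log2 change −2.49 ± 0.17, adjusted p = 3.13e-15). RSM10, a small-subunit protein with a bacterial counterpart, went from 26, 21.7 and 24.0 to 4.78, 4.08 and 4.37 (−2.20 ± 0.17, adjusted p = 6.36e-14). The smallest fall was that of RSM24, a small-subunit protein specific to mitochondria, from 23.4, 17.3 and 20.4 to 9.21, 6.90 and 7.19 (−1.29 ± 0.17), which turned to 0.65 with TMM scaling. No group overlapped in these 3 genes.

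With loss of Med17, MRPL1 (−2.09 ± 0.10) and MRPS18, a small-subunit protein with a bacterial counterpart (uS11; −2.07 ± 0.09), followed MRPL17. MRPS18 had 60.4, 56.6 and 51.7 in DMSO and 12.8, 12 and 13.2 in 3IAA (adjusted p = 3.39e-18). The smallest fall was in MRPS17 (uS17), from 120, 115 and 115 to 52.8, 46.6 and 52.9 (−1.19 ± 0.09, and 0.54 with TMM scaling). Its libraries also did not overlap between the groups.

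With loss of Ccl1 other members fell most. MRPL37, a large-subunit protein specific to mitochondria (mL54), had a signal of 40.9, 43.8 and 39.0 in DMSO and 4.22, 4.68 and 3.29 in 3IAA, the largest fall (log2 change −3.07 ± 0.11, adjusted p = 1.3e-12, and −1.02 with TMM scaling). MRPS16 followed, from 90.9, 92.8 and 91.5 to 11.1, 12.6 and 10.9 (−2.89 ± 0.08), and then MRPL38 (uL14), from 33.9, 38.6 and 29.9 to 4.03, 4.70 and 3.91 (−2.75 ± 0.11). MRPL3, a large-subunit protein with a domain related to ribonuclease III (mL44), fell least, from 61.8, 62.9 and 56.0 to 21.6, 21.7 and 22.6 (−1.41 ± 0.08), which is 0.76 above the typical gene and 0.80 with TMM scaling. The DMSO and 3IAA libraries did not overlap in any of the 4 genes. MRPL3 was also the highest member with loss of Med10 (−1.59 against −2.13 for the typical gene) and Med14C (−1.47 against −1.79). The same held with loss of Med15 and Taf1 (−1.82 against −2.5), where it had 0.77 with TMM scaling.

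The 8 genes followed in every main comparison (MRPL3, MRPL16, MRPL32, MRPL38, MRPS12, RSM10, RSM23 and RSM26) fell wherever they were tested in these 4 depletions. Their log2 changes with loss of Med17 lay between −1.64 (RSM23) and −1.24 (MRPL3), and with loss of Med15 and Taf1 between −2.62 (RSM10) and −1.82 (MRPL3). With loss of Ccl1 they lay between −2.75 (MRPL38) and −1.41 (MRPL3). With loss of Med14, MRPL38 and MRPS12 were below the filter on signal, and the other 6 lay between −2.20 (RSM10) and −1.46 (MRPL16).

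Single members were also averaged over the 28 comparisons of signal. Among the 23 members tested in all of them, the mean difference from the median of all genes ran from −0.08 to 0.20 on the log2 scale. The lowest were MRPL1 (−0.08), MRPS18 (−0.08) and MRPL8 (−0.06), and the highest were MRPS17 (0.20), RSM24 (0.18) and MRPS5 (0.18). MRPS17 lay below the median of all genes in 2 of 28 comparisons and MRPS18 in 21. MRPL17, tested in 26, had −0.15. Across comparisons the SD of these differences was 0.17 for MRPS17, 0.13 for MRPS18 and 0.38 for MRPL17. Comparisons that share control libraries, such as med7N_del and Med7_EWE3, are not independent.

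Members at low signal were often not tested: MRPL19 passed the filter in 6 of the 28 comparisons, RSM19 in 8, MRPL25 in 14 and MRPL23 in 15.

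With loss of Med15, Med16 or Med5, or of Med15 and Med16 together, at most 1 member passed the test. With loss of the tail pair Med2 and Med15 25 of 54 were called higher, near the share of all genes (44.6%; medians 0.34 for members and 0.32 for all genes), as described further on. With loss of Med15 alone, 0 of 45 tested members were called (limma, 0.66% of all genes higher and 4.45% lower), 0 had an unadjusted p under 0.05, and the medians were 0.16 for members and 0.07 for all genes. Without Med15_DMSO replicate A, 8 members were called higher. MRPL24, the highest member, had a signal of 15, 12.4 and 11.1 in DMSO and 17.6, 17.3 and 15.7 in 3IAA, which did not overlap, but its adjusted p was 0.559 (log2 change 0.37 ± 0.21). MRPL3 had 39.2, 33.9 and 27.8 against 32.9, 37.4 and 33.3, with overlap (0.05 ± 0.20, and −0.02 with TMM scaling). With loss of Med15 and Med16 together 0 of 54 were called (11.2% of all genes higher and 15.9% lower; 0 at an unadjusted p under 0.05, 1 with edgeR on the recovered reads and 1 with replicate as a block). With loss of Med5 0 of 54 were called (0.536% higher and 0.165% lower; 7 at an unadjusted p under 0.05, 0 with edgeR on the recovered reads and 3 lower with replicate as a block), and with the TID comparison 0 of 53 (0.862% higher and 4.86% lower; 4 at an unadjusted p under 0.05 and 3 higher with replicate as a block).

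With loss of Med16 only MRPL32, a large-subunit protein with a bacterial counterpart (bL32), was called, higher in 3IAA at 104, 97.7 and 66.8 than in DMSO at 63.2, 58.6 and 54.3 (log2 change 0.58 ± 0.18, adjusted p = 0.041; 1.17% of all genes were called higher). Replicate C of 3IAA lay close to the DMSO libraries. The call was lost with TMM scaling (adjusted p = 0.0616), and leaving out any of 4 libraries, Med16_3IAA A or B or Med16_DMSO B or C, left 0 calls, as did testing without the filter on signal. With replicate as a block 7 members were called higher.

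The differences between these changes were tested directly. In the comparison of Med15_Taf1 with Med15, all 52 tested members fell further with the double loss (99.8% of all genes did), with a median difference of −2.42 for members and −2.56 for all genes. In the comparison of Med14 with Med15 all 42 tested members fell further with loss of Med14 (99.4% of all genes), with medians of −1.94 and −2.02. MRPL17 had the largest difference in the first, at −4.35, and MRPL1 in the second, at −2.80. With TMM scaling 13 members were higher and 1 lower in the first and 3 and 3 in the second.

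Depletion of Med9, Med1 and pairs of subunits gave smaller shifts. With loss of Med9 26 of 50 tested members were called higher (37.4% of all genes; medians 0.19 and 0.11), among them MRPS12, the small-subunit protein uS12 of the decoding centre, at 57.2, 49.0 and 46.1 in 3IAA and 34.2, 32.0 and 34.4 in DMSO (log2 change 0.58 ± 0.07, adjusted p = 1.31e-06). With TMM scaling 18 members were higher and 5 lower with loss of Med9 (23.2% and 27.4% of all genes). With loss of Med2 and Med15 25 of 54 were called higher (44.6% of all genes). This count ran from 2 without Med2_15_DMSO replicate A to 49 without Med2_15_DMSO replicate C, was 15, 10 and 5 without replicates A, B and C of 3IAA and 6 without DMSO replicate B, and was 46 with replicate as a block. With loss of Med1 20 of 52 were called lower (36.2%), and with loss of Med1 and Med5 34 of 53 (78.0%). Leaving out a library moved the count for Med1 to between 3 and 44 for each of its 6 libraries (44 without Med1_DMSO replicate C), and that for Med1_5 to 15, 7 and 20 without 3IAA replicate B, 3IAA replicate C and DMSO replicate B. With TMM scaling 0 members were called for Med1 (4.7% of all genes were higher and 2.15% lower). For Med1_5 1 was higher and 0 lower (3.41% and 1.13%), and for Med2_15 1 was higher and 1 lower (3.56% and 7.09%).

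With loss of the kinase CDK8 only MRPL4 (uL29) was called, higher at 55.1, 47.2 and 47.1 than at 42.2, 36.8 and 36.5 (log2 change 0.36 ± 0.09, adjusted p = 0.021; 7.53% of all genes were called higher), and 0 members were called without CDK8_DMSO replicate C or without the filter on signal. With loss of Med12 0 of 50 were called (12.5% of all genes higher and 4.84% lower; 5 at an unadjusted p under 0.05, and 3 members higher without Med12_DMSO replicate A). With loss of Med7 0 of 47 were called (0.199% higher and 9.01% lower; 1 at an unadjusted p under 0.05, 1 with edgeR on the recovered reads, and 1 without Med7_DMSO replicate A).

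In the deletion of MED15 (med15del) all 37 tested members had higher signal than in WT, as did most genes (87.6%). The medians were 0.49 for members and 0.52 for all genes. With TMM scaling 1 member was higher and 9 lower (15.1% and 34.1% of all genes). MRPL10, a large-subunit protein with a bacterial counterpart (uL15), had 17.5, 17.4 and 16.1 in med15del and 8.90, 8.47 and 8.88 in WT (log2 change 0.88 ± 0.07, adjusted p = 7.72e-07, and 0.30 with TMM scaling). MRPL31 had 17.6, 17.1 and 15.3 against 8.18, 9.72 and 10.5 (0.76 ± 0.10), and MRPL37 had 20.0, 18.7 and 16.8 against 10.1, 11.9 and 11.4 (0.68 ± 0.09). The groups did not overlap, and with TMM scaling the adjusted p was 0.0727 for MRPL31 and 0.276 for MRPL37. In the deletion of MED16 (med16del) 12 of 31 tested members were called higher (28.9% of all genes). That count was 6 without med16del replicate B, 5 without WT replicate A and 6 without WT replicate B, and it was 22 of 54 without the filter on signal. With TMM scaling 3 were higher and 3 lower (13.1% and 27.2% of all genes).

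Under HS some members rose and fewer fell. In the DMSO libraries of SHY1055, 20 of 54 members were higher under HS than in no_stress (36.9% of all genes were) and 6 were lower (37.6% were), with a median of 0.08. Of the 138 cytoplasmic ribosomal protein genes, 125 were higher and 1 lower, with a median of 0.46. Of the 54 respiratory chain and ATP synthase genes 40 were higher and 4 lower, and of the 24 other mitoribosomal protein genes 11 were higher and 0 lower. Of 56 ribosome biogenesis genes 52 were lower. Counts of the stress libraries are TMM-scaled, so a shift of all genes cannot be seen, and HS and SM share the same 3 no_stress libraries.

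Under SM the members fell while the genes of the cytoplasmic ribosome rose. Of the 54 members 37 were lower than in no_stress and 0 higher, with a median log2 change of −0.26. Of all genes 26.2% were called lower and 26.4% higher, and the median of all genes was −0.01. Of the cytoplasmic ribosomal protein genes 127 of 138 were higher (median 0.43), and of the ribosome biogenesis genes 43 of 56. The other mitoribosomal protein genes were lower in 15 of 24 (0 higher, median −0.23), and the respiratory chain and ATP synthase genes were lower in 17 of 54 and higher in 3. Among the members, 28 of 34 of the large subunit were lower (median −0.32) and 9 of 20 of the small subunit (median −0.17). Only 3 members lay above the median of all genes. RSM22, the member without the Puf3 letters, was the highest, at 0.14 ± 0.06 (adjusted p = 0.068).

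**Figure D4:**
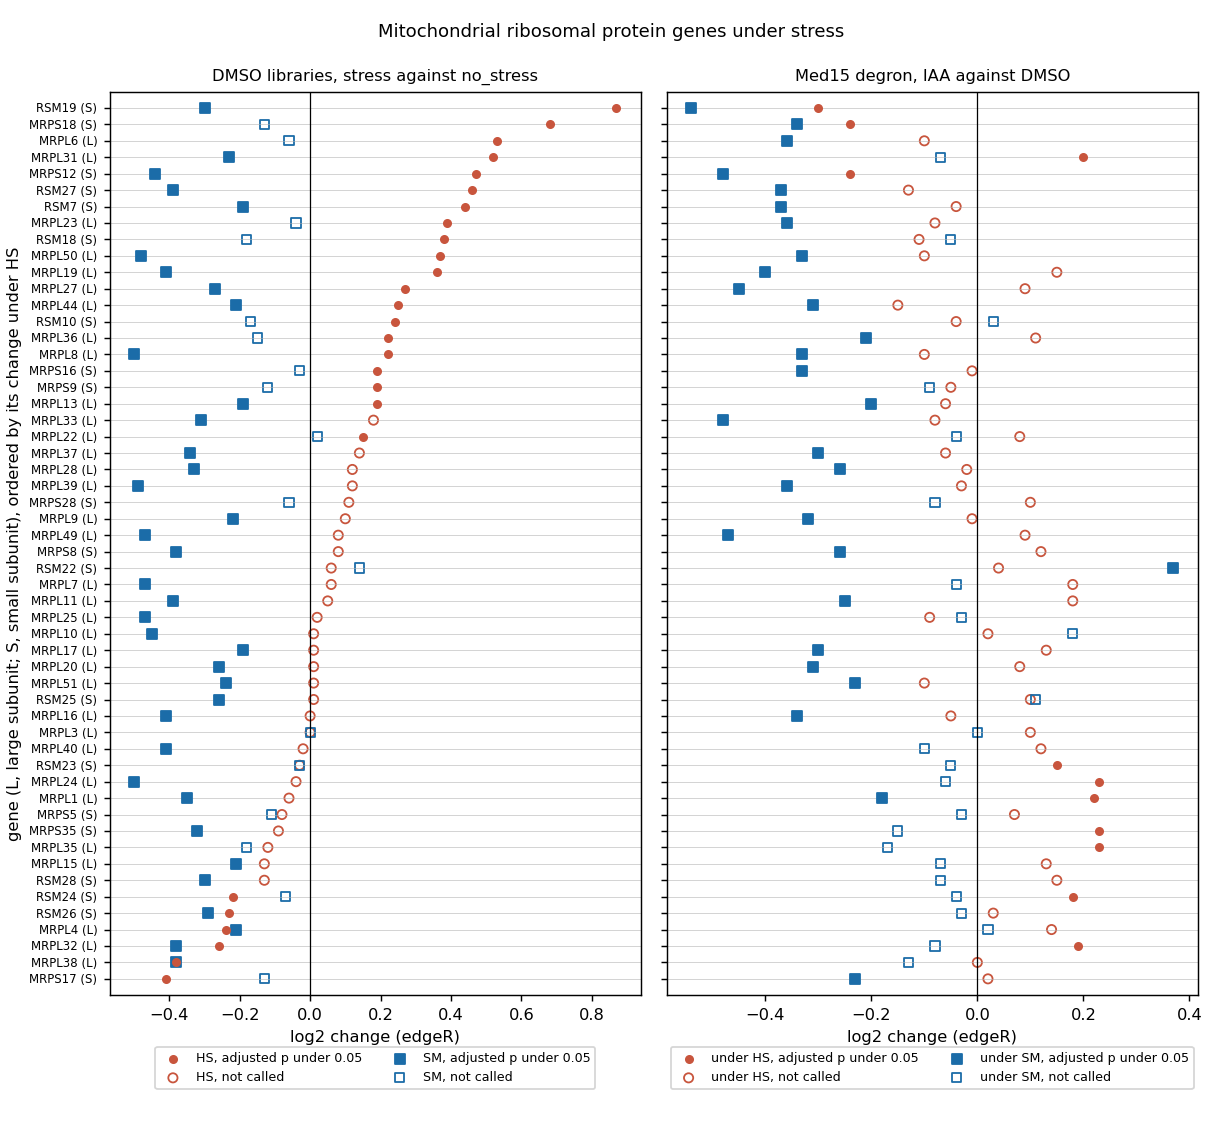
Log2 change (edgeR) of each of the 54 members. Left, HS (red) and SM (blue) against no_stress in DMSO; right, depletion of Med15 (IAA against DMSO) under HS (red) and under SM (blue). Filled symbols passed an adjusted p of 0.05. Under SM filled symbols lie below 0 on the left, and on the right RSM22 is the only filled SM symbol above 0.

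The largest falls under SM were modest. MRPL8, a large-subunit protein with a bacterial counterpart (bL17), had 147, 161 and 156 CPM in no_stress and 110, 114 and 103 under SM (log2 change −0.50 ± 0.09, adjusted p = 0.00016). MRPL24 (bL28) had 92, 91.6 and 90.0 against 69.0, 68.3 and 55.8 (−0.50 ± 0.09, adjusted p = 0.000129). MRPL39 had 117, 102 and 105 against 79.5, 73.6 and 78.6 (−0.49 ± 0.07, adjusted p = 2.59e-05). In all 3 genes every SM library was below every no_stress library. Of the 8 genes followed throughout, MRPS12 (−0.44), MRPL16 (−0.41), MRPL32 (−0.38), MRPL38 (−0.38) and RSM26 (−0.29) fell. MRPL3 had 214, 223 and 211 in no_stress and 216, 217 and 215 under SM, RSM23 had −0.03 ± 0.06 and RSM10 −0.17 ± 0.08, none of them called.

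Under HS the members split. RSM19 had 51.2, 46.5 and 54.3 CPM in no_stress and 94.9, 76.2 and 107 under HS (log2 change 0.87 ± 0.11, adjusted p = 1.45e-06). MRPS18 went from 156, 146 and 157 to 247, 229 and 261 (0.68 ± 0.07, adjusted p = 8.12e-08), and MRPL6 (uL6) from 62.5, 62.3 and 56.7 to 80.7, 90.0 and 92.8 (0.53 ± 0.09, adjusted p = 1.94e-05). All HS libraries lay above all no_stress libraries in these 3 genes. MRPS12, which lies 230 bases downstream of RSM19 on the same strand, rose as well, from 142, 140 and 136 to 199, 176 and 205 (0.47 ± 0.07, adjusted p = 1.01e-05). The count of members called under HS was 17 in place of 26 without Med15_DMSO_HS replicate C.

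The falls under HS were smaller. MRPS17 went from 237, 243 and 268 CPM to 202, 178 and 180 (log2 change −0.41 ± 0.07, adjusted p = 3.58e-05), MRPL38 from 124, 110 and 119 to 92.8, 89.0 and 90.9 (−0.38 ± 0.07) and MRPL32 from 128, 136 and 142 to 111, 113 and 113 (−0.26 ± 0.06). These groups did not overlap. MRPS17 shares its upstream region of 496 bases with GCV2, of glycine breakdown, which is read the other way and rose from 249, 257 and 235 to 840, 779 and 893 (1.76 ± 0.15, adjusted p = 1.01e-08). MRPL3 (adjusted p = 0.95), MRPL16 (adjusted p = 0.961) and RSM23 (adjusted p = 0.7) were not called, RSM10 rose (0.24 ± 0.08, adjusted p = 0.0106) and RSM26 fell (−0.23 ± 0.10, adjusted p = 0.0399).

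Set directly against each other, 42 of 54 members were higher under HS than under SM (38.9% of all genes) and 1, MRPS17, was lower (39.4%), with a median of 0.40 for members and −0.01 for all genes. The median was 0.43 for the large and 0.25 for the small subunit, 0.38 for the other mitoribosomal protein genes and 0.03 for the cytoplasmic ribosomal protein genes. RSM19 had the largest difference, at 1.17. These values come from the same libraries as the comparisons with no_stress and are not further evidence for them.

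Depletion of Med15 was then compared within each stress. Under SM 29 of 54 members were lower in IAA than in DMSO (27.1% of all genes were) and 1 was higher (21.0% were), with a median of −0.21 for members and −0.04 for all genes. By subunit, 21 of 34 members of the large subunit were lower and 0 higher, against 8 of 20 lower and 1 higher for the small subunit. Under HS 8 were higher (15.8% of all genes) and 3 lower (19.1%), with a median of 0.03. That count of 11 was 6 without Med15_DMSO_HS replicate A, 7 without B and 6 without C, and 4 and 5 without Med15_IAA_HS replicates B and C. These comparisons share the DMSO libraries with the comparisons of stress above.

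RSM19, MRPS12 and MRPS18 fell in both stresses. Under SM, RSM19 had 42.4, 37.5 and 42.7 CPM in DMSO and 28.6, 30.2 and 25.4 in IAA (log2 change −0.54 ± 0.12, adjusted p = 0.0012), with no overlap. Under HS it had 94.9, 76.2 and 107 in DMSO and 79.7, 67.7 and 78.5 in IAA, which overlapped (−0.30 ± 0.11, adjusted p = 0.0373). MRPS12 had 105, 110 and 92.1 under SM in DMSO and 75.3, 76.8 and 68.4 in IAA (−0.48 ± 0.07, adjusted p = 4.1e-05), and fell by 0.24 under HS (adjusted p = 0.0119). MRPS18 had 142, 148 and 130 under SM in DMSO and 115, 109 and 108 in IAA (−0.34 ± 0.07, adjusted p = 0.00069), and fell by 0.24 under HS, from 247, 229 and 261 to 216, 189 and 220 (adjusted p = 0.0103). MRPL33 (uL30) fell under SM, from 61.2, 60.8 and 53.0 to 40.6, 41.4 and 43.7 (−0.48 ± 0.11, adjusted p = 0.00113). MRPL3 did not pass the test in either stress (adjusted p = 0.178 under HS and 0.97 under SM).

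RSM22 rose with depletion of Med15 under SM, the only member to do so. It had 180, 166 and 167 CPM in DMSO and 228, 213 and 222 in IAA, with no overlap (log2 change 0.37 ± 0.06, adjusted p = 0.000101). Under HS it had 174, 155 and 158 in DMSO and 174, 153 and 172 in IAA, which overlapped (0.04 ± 0.06, adjusted p = 0.686). Under HS the largest rises were in MRPS35, from 83.6, 79.5 and 84.9 to 91.0, 104 and 95.9 (0.23 ± 0.08, adjusted p = 0.0271), MRPL24 (0.23 ± 0.09, adjusted p = 0.0479, and 0.0531 with DESeq2) and MRPL35 (0.23 ± 0.08, adjusted p = 0.0336). In these 3 genes no IAA library overlapped a DMSO library.

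GCV2, which faces MRPS17, fell with depletion of Med15 in both stresses, by 1.70 under HS and 1.28 under SM. MRPS17 had 0.02 ± 0.07 under HS (adjusted p = 0.836) and fell by 0.23 under SM (adjusted p = 0.00905).

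**Figure D5:**
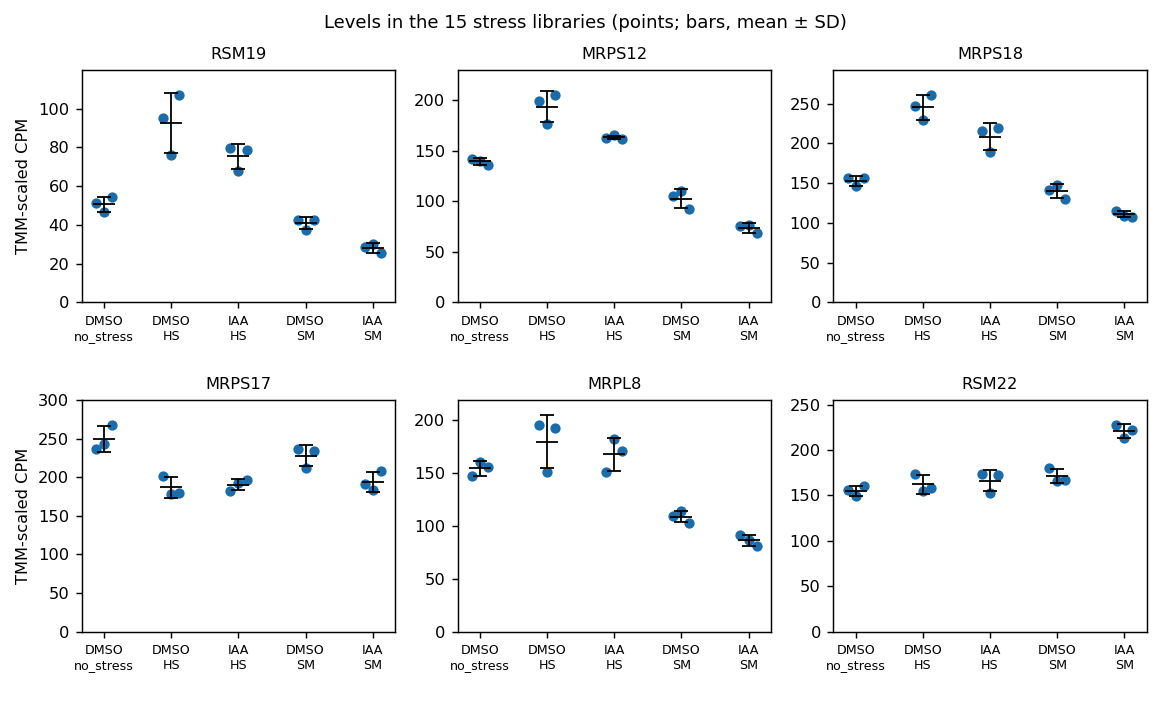
TMM-scaled CPM (y axis, from the 15 stress libraries) of members named for HS, SM or Med15, one point per library with the mean ± SD of 3 libraries as bars. RSM19 is highest under HS in DMSO (76.2 to 107) and lowest under SM in IAA (25.4 to 30.2), and RSM22 is highest under SM in IAA (213 to 228).

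The other gene lists were counted in the same way. Of the 138 cytoplasmic ribosomal protein genes, 131 were lower with depletion of Med15 under HS (median −0.54) and 70 under SM (median −0.19). The other mitoribosomal protein genes were lower in 1 of 24 under HS and 10 of 24 under SM. Of 54 respiratory chain and ATP synthase genes 13 were lower and 1 higher under HS, and 16 were lower and 4 higher under SM. Of 25 translation factors and tRNA synthetases 1 was lower and 2 were higher under HS, and 0 and 3 under SM.

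The difference between both stresses was itself tested. The change with depletion of Med15 was higher under HS than under SM in 17 of 54 members (14.5% of all genes) and lower in 1, RSM22 (14.0%). The median difference was 0.24 for members and 0.03 for all genes, and it was −0.35 for the cytoplasmic ribosomal protein genes. MRPL49, a large-subunit protein with a bacterial counterpart, had the largest difference, at 0.56 ± 0.12 (adjusted p = 0.00172), and RSM22 had −0.33 ± 0.09 (adjusted p = 0.0105). The count of 18 was 11 without Med15_DMSO_HS replicate A.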

How the data were processed

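RNA labelled with 4-thioU was sequenced in 177 libraries. The submitters' processing notes name HTSeq, Bowtie2 and the builds ASM294v2 and sacCer3. How the signal was scaled, and what each build was for, is not given in the sources used here. The authors deposited scaled signal per gene for 162 libraries and raw counts per gene for 15. Signal was tested with limma 3.58.1 on log2(signal + 1), with a mean signal of at least 10, using the libraries of the groups compared. Counts were tested with edgeR 4.0.16 over the 15 libraries with TMM scaling. P-values were adjusted over all genes tested, with a threshold of 0.05. Reads were called whole within 0.1 of a whole number, for at least 96.52% of values. No 2 libraries were identical (0 pairs).

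Each group was read from the titles and each mutant's control from its genotype. Replicate letters looked paired in 15 of 33 comparisons, where all 3 correlations of deviations from the group means were over 0.1. The main tests did not use these pairs in any comparison. Replicate as a block was fitted only as an alternative, in every comparison. Named genes were the 3 largest rises and falls past the threshold per main comparison, the 3 highest and lowest mean differences from the typical gene, and 8 genes followed throughout. The neighbours NRD1 and GCV2, and the lowest or highest members of other comparisons, were chosen after their values were seen. The members and lists were chosen with earlier results of these data known. Alternatives were TMM scaling of signal, pseudocounts of 0.1 and 5, no filter, RLE size factors, DESeq2 1.42.0, edgeR with TMM scaling on recovered reads, leaving out each library, and replicate as a block. The scripts were tested on simulated data.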

Additional observations from a re-analysis of the deposited data

Results flagged for a closer look

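The change differed between depletions, by a test of the difference itself, in 52 members for Med15_Taf1 against Med15 and in 42 for Med14 against Med15, all with the larger fall in the first named. It differed between the stresses in 18 members for depletion of Med15. Of the members named for depletion of Med15 under either stress, the difference (HS minus SM) was 0.38 in MRPS35, 0.39 in MRPL35, 0.40 in MRPL33 and −0.33 in RSM22.

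Libraries of a strain with degrons on Med15 and Spt7 were present in DMSO only and enter no comparison here. All 54 members had more than 3 reads in all 3 of these libraries, between 84 and 1703 recovered reads each, at library totals of 4608857 to 4811343.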

How the results depend on the processing

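Of 416 alternative counts of called members, 336 stayed within 1.5 times and 80 moved. Of 1099 values of named members, 1030 kept their side of the threshold with no called value changing sign, 40 lost the call, 1 gained it and 28 called values changed sign, all 28 with TMM scaling. Among the 1030, 38 values that were called under neither setting changed sign, none above 0.20 in size, 29 of them on leaving out a library. With TMM scaling these were MRPL3 (0.05 to −0.02) and MRPL16 (0.01 to −0.05) with loss of Med15.

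With TMM scaling, by construction relative to the typical gene, the members called were 32 for CCL1, 2 for CDK8, 22 for Med10, 2 for Med12, 18 for Med14C, 11 for Med14, 0 for Med16, 14 for Med17, 8 for Med19, 0 for Med1, 1 for Med1_5, 2 for Med2_15, 7 for Med31, 10 for Med7C, 14 for Med7N, 1 for Med7, 10 for med15del, 6 for med16del, 5 for med7N_del, 19 for Med7_EWE3, 0 for Med21_EWE4, 1 for Med6_delH1, 14 for Med15_Taf1 minus Med15 and 6 for Med14 minus Med15. The median over members moved by more than the spread in 22 of 28 comparisons. The log2 changes that turned were, for Med14, MRPL3 0.41, MRPL16 0.44, MRPL32 0.01 and RSM26 0.29. For Med17 they were MRPL3 0.48, MRPL16 0.06, MRPL32 0.16, MRPL38 0.12, MRPS12 0.21, RSM10 0.26, RSM23 0.08 and RSM26 0.15. For CCL1 they were MRPL3 0.80, MRPL16 0.22 and RSM23 0.20. For Med15_Taf1 they were MRPL3 0.77, MRPL16 0.51, MRPL32 0.39, MRPL38 0.30, MRPS12 0.20 and RSM23 0.34. For med15del they were MRPL3 −0.15, MRPL16 −0.14, MRPL32 −0.03, MRPL38 −0.24, MRPS12 −0.17, RSM10 −0.06 and RSM23 −0.05.

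Without a filter the counts were 0 for CDK8, 0 for Med16, 5 for Med1, 11 for Med2_15 and 22 for med16del. With replicate as a block they were 2 for CDK8, 2 for Med12, 1 for Med15_Med16, 7 for Med16, 46 for Med2_15, 3 for Med5, 3 for TID and 6 for med16del, and the block moved no other count past 1.5 times. The fit with edgeR on recovered reads also used TMM scaling, so its changes are relative to the typical gene. In that fit the counts were 2 for CDK8, 1 for Med15_Med16, 0 for Med16, 9 for Med19, 0 for Med1, 1 for Med1_5, 2 for Med2_15, 6 for Med31, 1 for Med7 and 0 for Med21_EWE4. The cause was not tested. Counts in this paragraph and the next are given without shares of all genes and show only how the counts moved.

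Leaving out 1 library gave 0 to 1 for CDK8, 0 to 3 for Med12, 0 to 8 for Med15, 0 to 1 for Med16, 3 to 44 for Med1, 7 to 39 for Med1_5, 2 to 49 for Med2_15, 0 to 1 for Med7, 5 to 16 for med16del, 17 to 26 for HS, 4 to 12 for Med15_in_HS and 11 to 24 for the difference between HS and SM. In Med21_EWE4 and Med7_EWE3 the lone library left was assumed to vary like the other group. Depth limits the lowest members, and it is unknown in 56 libraries.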
